A study of Rattus norvegicus with 10 samples.

Results

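The genes described here are 8 podocyte genes of the rat kidney (*Nphs1*, *Podxl*, *Synpo*, *Wt1*, *Plce1*, *Ptpro*, *Cd2ap* and *Kirrel1*), taken by symbol from the 32545 genes in the table. Of the symbols, 7 were listed as such, and *Kirrel1* was found under its older symbol *Kirrel*, which RefSeq pairs with it. RNA was sequenced from the kidneys of 5 male and 5 female PCK rats (PCK/CrljCrl-*Pkhd1*pck/Crl), with 1 library for each rat, and the comparison is between the sexes. The PCK rat is a model of autosomal recessive polycystic kidney disease that carries a mutation in *Pkhd1*, the gene of fibrocystin. Both sexes carried the mutation, so no value here stands for a kidney without cysts. The series record gives the age as 12 to 14 weeks and the study's methods as 10 to 12 weeks, the same for both sexes, and the methods name the tissue as renal cortex. By the methods the rats came from a pair of litters with separate parents. Which litter each rat belongs to was not used here, so no test below takes litter into account.

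Podocytes are the cells that wrap the glomerular capillaries with interlocking foot processes. Neighbouring foot processes are joined by the slit diaphragm, a cell junction built from proteins that include nephrin (*Nphs1*) and its relative Neph1 (*Kirrel1*), which adaptor proteins such as the product of *Cd2ap* link to actin. Loss of these proteins in people or in mice lets protein pass into the urine. In whole cortex the podocyte is a rare cell, so its transcripts are diluted by those of the tubules, and fewer podocytes cannot be told apart from less RNA for each podocyte.

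The libraries held 13912569 to 20285911 reads on genes. The values are FPKM (fragments per kilobase of gene length, scaled to the size of the library), and the reads behind each of the 8 genes numbered from 202 for *Wt1* in its lowest library to 4089 for *Podxl* in its highest. At a gene's mean number of reads, counting error was 5.77% of the value for *Wt1* and less for the other genes, below the spread between rats of a sex, which was 9.19% to 32.3% for the 8 genes. The share of reads from mitochondrial transcripts was 14.3% at its lowest and 26.8% at its highest, in female 2. None of the 8 genes overlapped another gene of the table in its Rnor_6.0 position. *Nphs1* lay head to head with *Kirrel2*, another member of the Neph family, with 2141 bases between them on chromosome 1.

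Promoters were matched in RefSeq for 7 of the 8 genes (build GRCr8, unlike the build of the table), and the 250 bases before the start of 4 of them are shown. *Nphs1* and *Podxl* are given because their levels went up and down together across the libraries, *Cd2ap* because its level did not follow them, and *Kirrel1* because its mean was lower in the females. The search took in 4 motifs on both strands, the E-box (CANNTG), the GC box (GGGCGG), the TATA box (TATAAA) and a forkhead site (TGTTTAC), and capitals mark every match.
Nphs1 (chr1:94848011-94848260, + strand): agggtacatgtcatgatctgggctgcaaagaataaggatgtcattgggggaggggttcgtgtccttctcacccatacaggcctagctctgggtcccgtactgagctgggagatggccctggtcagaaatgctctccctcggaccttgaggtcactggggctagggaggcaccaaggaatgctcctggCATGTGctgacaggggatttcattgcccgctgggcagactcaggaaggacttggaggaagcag
Podxl (chr4:61149132-61149381, - strand): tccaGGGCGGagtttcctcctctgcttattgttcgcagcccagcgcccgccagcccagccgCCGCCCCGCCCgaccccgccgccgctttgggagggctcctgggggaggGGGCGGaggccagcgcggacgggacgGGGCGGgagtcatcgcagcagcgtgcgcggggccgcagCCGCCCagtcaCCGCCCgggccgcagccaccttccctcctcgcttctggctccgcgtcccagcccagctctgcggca
Cd2ap (chr9:25583725-25583974, + strand): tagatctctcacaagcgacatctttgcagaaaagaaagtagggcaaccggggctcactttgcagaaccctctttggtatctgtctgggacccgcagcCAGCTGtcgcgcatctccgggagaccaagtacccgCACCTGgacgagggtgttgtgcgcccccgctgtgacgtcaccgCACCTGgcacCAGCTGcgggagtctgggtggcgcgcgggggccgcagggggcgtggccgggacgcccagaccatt
Kirrel1 (chr2:174912961-174913210, - strand): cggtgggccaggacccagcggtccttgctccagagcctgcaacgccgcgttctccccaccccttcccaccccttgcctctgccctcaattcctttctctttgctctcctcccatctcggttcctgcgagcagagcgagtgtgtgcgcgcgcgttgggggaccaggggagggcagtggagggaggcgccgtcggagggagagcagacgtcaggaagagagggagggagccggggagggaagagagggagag
The window of *Nphs1* held 1 E-box and that of *Cd2ap* held 4, and 65.5% of the 33469 promoters in the table held at least 1. *Podxl* held 7 GC boxes, some of them overlapping, where 30.5% of all promoters held at least 1. *Kirrel1* held none of the 4 motifs. No TATA box and no forkhead site was found in the 7 windows, against 12.9% and 3.21% of all promoters. The 7 windows were 57.2% to 76.4% G and C, compared with a median of 51.2% over all promoters. These matches describe the letters only.

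Of the 8 genes, 6 had a higher mean in females and 2 a lower one, but the sexes could be separated for a single gene. *Plce1* was called by limma after Benjamini-Hochberg adjustment over all 17631 genes tested, and the other 7 had adjusted p-values between 0.255 and 0.946. In all, 2.40% of the genes tested were called in either direction and 1.26% as higher in females. At the stricter rule, which also asks for a fold of at least 2 (log2 of 1), 0 of the 8 passed and 1.32% of all genes did. Without adjustment, limma gave p of at most 0.05 for 4 of the 8 (*Plce1*, *Kirrel1*, *Ptpro* and *Podxl*) and for 15.7% of all genes. An exact permutation test of the mean FPKM did so for 2 of the 8 (*Plce1* and *Kirrel1*) and for 14.8% of all genes, and the ranges of the sexes did not overlap for 1 of the 8 and for 5.10% of all genes. The median log2 fold change was 0.29 for the 8 genes and -0.01 for all genes tested.

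**Figure D1:**
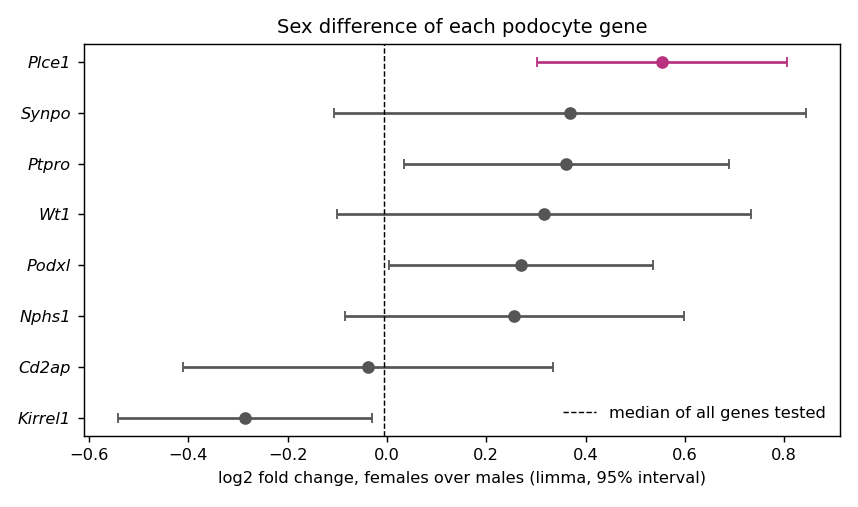
Log2 fold change (females over males) of each podocyte gene, fitted by limma on log2(FPKM + 0.1) from 5 rats of each sex, with its 95% interval. Only the coloured point, *Plce1* at 0.55, passed the adjusted threshold, and the dashed line marks the median of all genes tested (-0.01).

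*Plce1* (ENSRNOG00000014276, chromosome 1, 257157264 to 257466064) encodes phospholipase C epsilon, a signalling enzyme of the foot process whose loss causes a nephrotic syndrome of early childhood. Males 1 to 5 had 2.56, 2.11, 2.40, 2.23 and 2.71 FPKM and females 1 to 5 had 3.21, 3.89, 4.003, 3.38 and 3.40 FPKM. Every female was above the highest male. The means were 2.40 ± 0.243 FPKM in males and 3.58 ± 0.349 FPKM in females (SD, n = 5 each), a ratio of 1.49 that the exact two-sided permutation test put at p = 0.00794, the smallest that 5 against 5 allows. The log2 fold change was 0.55 (SE 0.11, 95% interval 0.30 to 0.81, limma adjusted p = 0.0290). This call was lost when the values were rescaled to total reads (limma adjusted p = 0.0986) and in 6 of the 10 fits that left out 1 library (males 1, 2, 3 and 4 and females 3 and 5, limma adjusted p up to 0.0780). *Plce1* was also the lowest of the 8 genes by mean FPKM, while its 358 to 698 reads in a library were more than those of the shorter *Wt1* (202 to 417).

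*Kirrel1* (ENSRNOG00000016408, chromosome 2, 186420795 to 186515135) encodes Neph1, the partner that nephrin binds across the slit. Males 1 to 5 had 12.6, 10.1, 10.8, 10.2 and 11.3 FPKM and females 1 to 5 had 9.28, 10.3, 10.4, 7.19 and 8.19 FPKM. No female exceeded the male median and 3 females were below the lowest male, yet females 2 and 3 lay inside the male range. The means of 11.0 ± 1.01 and 9.07 ± 1.38 FPKM (SD, n = 5 each) differed by -0.29 on the log2 scale (SE 0.12, limma adjusted p = 0.255). The exact permutation test gave p = 0.0476 without adjustment, and this passed the threshold in 4 of 10 repeats with 1 library left out. It was lost (exact p between 0.0714 and 0.0873) without males 1, 3 or 5 or females 1, 4 or 5.

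*Nphs1* (ENSRNOG00000020873, chromosome 1, 88922433 to 88950559), the gene of nephrin itself, did not separate the sexes. Males 1 to 5 had 16.2, 11.3, 13.1, 9.97 and 11.6 FPKM and females 1 to 5 had 11.1, 18.4, 15.4, 15.8 and 13.7 FPKM. Male 1 was above 4 of the 5 females, and only female 2 exceeded that rat. The means were 12.4 ± 2.40 and 14.9 ± 2.71 FPKM (SD, n = 5 each), and the log2 fold change was 0.26 (SE 0.16, 95% interval -0.09 to 0.60, limma adjusted p = 0.468, exact permutation p = 0.183).

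*Cd2ap* (ENSRNOG00000011987, chromosome 9, 20765296 to 20858504) encodes an adaptor between the slit proteins and actin that many other cells also make. Males 1 to 5 had 42.4, 39.8, 49.7, 57.1 and 46.5 FPKM and females 1 to 5 had 58.3, 61.2, 42.0, 36.4 and 35.7 FPKM. Females 1 and 2 were above all males and females 4 and 5 below all of them. The means were 47.1 ± 6.76 and 46.7 ± 12.2 FPKM (SD, n = 5 each), the log2 fold change was -0.04 (SE 0.17, 95% interval -0.41 to 0.33, limma adjusted p = 0.946), and the exact permutation p was 0.968. Its direction turned when single libraries were left out.

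The signalling receptor *Ptpro* (ENSRNOG00000006231, chromosome 4, 171250818 to 171461677) encodes a tyrosine phosphatase on the apical surface of the foot processes. In males 1 to 5 the values were 17.2, 12.9, 15.4, 11.0 and 14.5 FPKM and females 1 to 5 had 14.5, 23.8, 18.8, 17.95 and 16.3 FPKM. Of the females, 3 were above the highest male, and female 1 was at the level of male 5. The log2 fold change was 0.36 (SE 0.15, limma adjusted p = 0.264), and the exact permutation p was 0.0635, which fell to 0.0238 without female 1 and to 0.0397 without male 1.

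*Podxl* (ENSRNOG00000012495, chromosome 4, 58829060 to 58893170) encodes podocalyxin, the charged sialoprotein that keeps foot processes apart and that endothelium makes as well. The 5 males, in number order, had 38.9, 27.1, 31.3, 27.6 and 31.0 FPKM and females 1 to 5 had 30.8, 41.9, 42.3, 38.7 and 34.1 FPKM. Females 2 and 3 exceeded every male, and female 1 lay below 3 of the males. The log2 fold change was 0.27 (SE 0.12, limma adjusted p = 0.313, exact permutation p = 0.0952). The exact p was 0.0476 without female 1 and 0.0397 without male 1.

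*Synpo* (ENSRNOG00000019181, chromosome 18, 55865467 to 55916220) encodes synaptopodin, which binds actin in the foot process. For males 1 to 5 the table gave 18.7, 12.5, 16.3, 13.2 and 10.1 FPKM and females 1 to 5 had 13.9, 28.3, 20.2, 16.3 and 14.1 FPKM. It had the widest spread of the 8 genes, with female 2 at 2.81 times the level of male 5. The log2 fold change of 0.37 (SE 0.22, 95% interval -0.11 to 0.84) was not called (limma adjusted p = 0.455, exact permutation p = 0.190). Without female 2 it was 0.20, and the difference in means went from 4.42 to 1.99 FPKM.

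*Wt1* (ENSRNOG00000013074, chromosome 3, 95133713 to 95180564) encodes the zinc finger factor that maintains podocyte identity. Among the males, numbers 1 to 5 had 7.14, 6.41, 6.17, 4.78 and 6.24 FPKM and females 1 to 5 had 4.59, 9.54, 8.39, 8.99 and 7.74 FPKM. Of the 5 females, 4 were above every male and female 1 was below all of them. The log2 fold change was 0.32 (SE 0.19, limma adjusted p = 0.462), and the exact permutation p moved from 0.119 to 0.00794 without female 1.

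**Figure D2:**
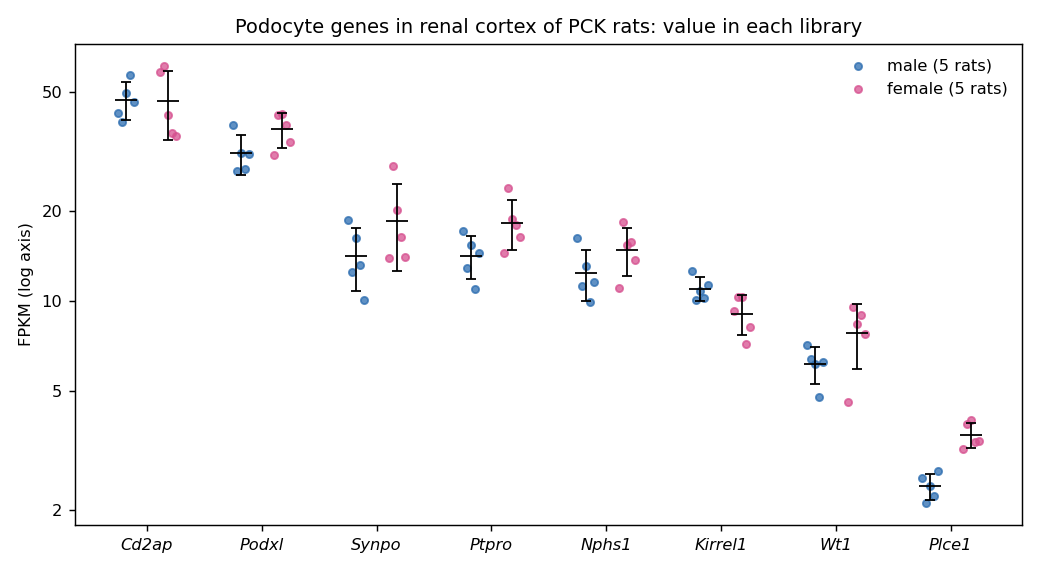
FPKM of each podocyte gene (log axis) in the 10 libraries, 5 male and 5 female rats, with 1 point for each library and bars for the mean ± SD of a sex, ordered by mean level. The sexes overlap for every gene except *Plce1*, where the males end at 2.71 and the females begin at 3.21 FPKM.

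By mean FPKM over the 10 libraries the genes ran from *Cd2ap* (46.9) through *Podxl* (34.4), *Synpo* (16.4), *Ptpro* (16.2), *Nphs1* (13.7), *Kirrel1* (10.04) and *Wt1* (6.999) to *Plce1* (2.99). Neighbours in this order were compared within libraries by an exact test over all sign flips of the log2 difference, adjusted over the 7 pairs. *Synpo* and *Ptpro* could not be ranked, since *Synpo* was higher in 5 of 10 libraries (adjusted exact p = 0.861). The other 6 steps were larger than the spread between libraries, with adjusted exact p between 0.00456 and 0.0137. The step from *Ptpro* to *Nphs1* was small, at a log2 difference of 0.24, but was present in all 10 libraries. The order is over both sexes together. *Nphs1* was above *Kirrel1* in 4 of 5 males (mean log2 difference 0.16) and 5 of 5 females (0.70), *Kirrel1* above *Wt1* in 5 males (0.84) and 4 females (0.24), and *Cd2ap* above *Podxl* in 5 males (0.59) and 3 females (0.29). Of these steps only that between *Nphs1* and *Kirrel1* was compared between the sexes, as 1 of 4 ratios to *Nphs1* chosen after the values were seen. The ratio of *Kirrel1* to *Nphs1* was 0.900 ± 0.103 in males and 0.625 ± 0.142 in females (SD, n = 5 each, exact permutation p = 0.0238, not adjusted), with the ranges overlapping.

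The 8 genes did not vary independently between rats. Averaged over the 8 genes as a log2 difference from each gene's mean, the libraries ran from -0.25 in male 4 and -0.24 in male 2 to 0.22 in female 3 and 0.44 in female 2. Female 2 held the highest value of 5 of the 8 genes, and it was also the library with the highest mitochondrial share. Within each sex the same held in smaller measure, with male 1 the highest male for 6 genes and female 1 the lowest female for 6 genes. Without female 2 limma still called 1 of the 8 and the exact test 2, so these counts did not rest on that library. The part of the mitochondrial share in the levels of female 2 was not tested.

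**Figure D3:**
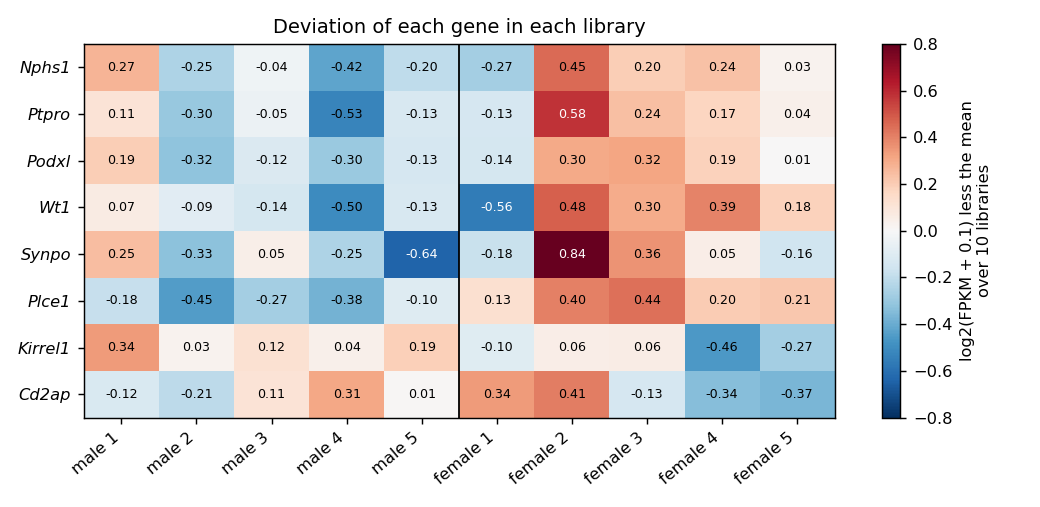
Log2(FPKM + 0.1) of each podocyte gene (lines) in each library (columns, the line divides the sexes) less that gene's mean over the 10 libraries, with red above and blue below the mean. The top 6 genes are red in female 2 and blue in male 4, while *Kirrel1* is red in all 5 males and *Cd2ap* is blue in females 3, 4 and 5.

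As a description across the 10 libraries with each sex centred on its mean, *Nphs1* correlated most with *Ptpro* (Pearson r = 0.95, Spearman rho = 0.89) and with *Podxl* (r = 0.93, rho = 0.92), and next with *Wt1* (r = 0.86, rho = 0.81). Against the mean of the other 7 genes, r was 0.92 for *Ptpro*, 0.88 for *Podxl*, 0.85 for *Nphs1*, 0.80 for *Synpo*, 0.75 for *Plce1*, 0.62 for *Kirrel1* and 0.59 for *Wt1*, and it was 0.00 for *Cd2ap*. The 2 libraries farthest from the middle, male 1 and female 2, carried part of this. Without them r was 0.80 for *Ptpro*, 0.88 for *Podxl* and 0.68 for *Nphs1*, but 0.48 for *Synpo*, 0.40 for *Wt1* and -0.39 for *Cd2ap*. It rose to 0.77 for *Plce1* and to 0.72 for *Kirrel1*. The points share their library and therefore its cell makeup and depth. For *Kirrel1* the sign depended on the centring, since r was -0.07 with the sexes pooled.

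Because levels in a library moved together, each gene was also set against the mean of the other 7 in the same library, on the log2 scale. For *Kirrel1*, males lay between -0.31 and -0.11 and females between -1.08 and -0.48, so the sexes did not overlap. This difference of -0.58 had an exact permutation p of 0.00794. *Kirrel1* alone had a log2 fold change of -0.29, with overlapping ranges. The remainder came from the other 7 genes, of which 6 had a higher mean in females. The difference was 0.38 for *Plce1* (exact permutation p = 0.0159) and 0.16 for *Ptpro* (exact permutation p = 0.0476). For *Nphs1*, *Podxl*, *Synpo*, *Wt1* and *Cd2ap* it lay between -0.30 and 0.16, with exact permutation p between 0.230 and 0.683. These p-values are not adjusted, and when all 17631 genes were set against the mean of the podocyte genes in the same way, 19.6% had an exact p of at most 0.05. Non-overlap of the sexes on this scale was not counted over all genes.

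**Figure D4:**
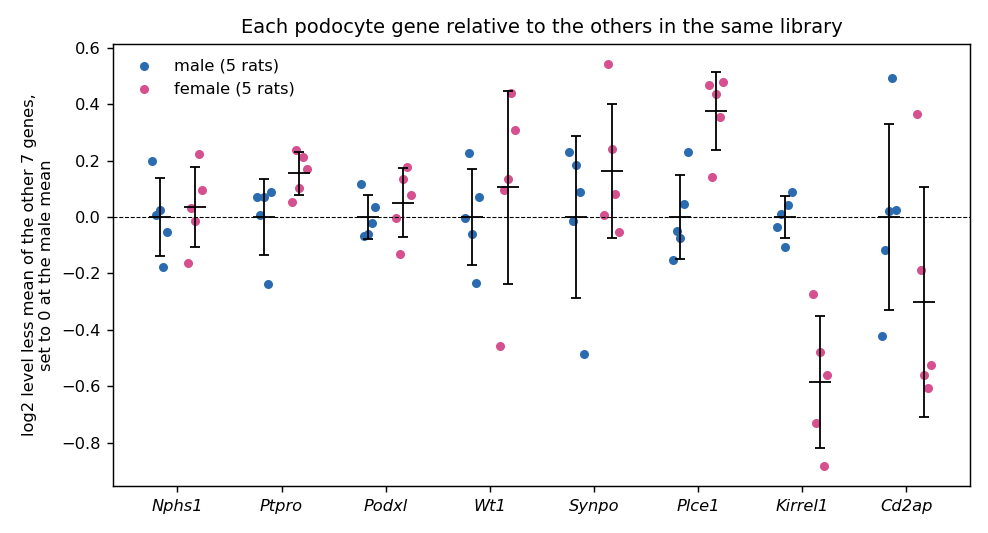
Log2 level of each podocyte gene less the mean of the other 7 in the same library, shown relative to the male mean, for 5 male and 5 female rats (points) with the mean ± SD of each sex (bars). *Kirrel1* lies lower in all 5 females than in any male, at a mean difference of -0.58 (-0.29 for its level alone). *Nphs1* and *Podxl* centre near 0 in both sexes.

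Other genes of the podocyte and of the filtration barrier were taken as 5 lists with 55 genes, of which 53 were listed (*Nes* and *Col4a3* were not matched) and 52 were tested (*Cd151* was under the filter). Limma called 0 of the 52 at the adjusted threshold, where 2.40% of all genes were called. Without adjustment limma passed 9 of the 52 (15.7% of all genes) and the exact permutation test also 9 (14.8% of all genes). A fold above 0 was found for 31 of the 52, where 48.8% of all genes had one, and the median log2 fold change was 0.05. The ranges of the sexes did not overlap for 2 of the 52 (5.10% of all genes), *Enpep* and *Pla2r1*, both lower in females and named after their values were seen.

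Among the 11 slit diaphragm partners the median log2 fold change was 0.04. *Kirrel3*, the lowest, had 0.0738 ± 0.0408 and 0.169 ± 0.0794 FPKM from 2 to 17 reads in a library (SD, n = 5 each, limma adjusted p = 0.417, exact permutation p = 0.0397).

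In the list of 13 tested cytoskeleton genes, whose median log2 fold change was 0.04, the most abundant was *Ezr*, which encodes ezrin, a linker between the membrane and actin. It had 189 ± 23.4 FPKM in males and 245 ± 30.5 in females (SD, n = 5 each, limma adjusted p = 0.156). The lowest was *Anln*, the actin-binding anillin, with 1.62 ± 0.568 and 0.879 ± 0.532 FPKM (SD, n = 5 each, limma adjusted p = 0.266). *Ddn*, which encodes dendrin and was picked out after its values were seen, had the highest log2 fold change of this list, 0.68. Its levels were 5.51 ± 1.33 FPKM in males and 8.91 ± 2.11 in females (SD, n = 5 each, limma adjusted p = 0.103, exact permutation p = 0.0159).

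The 6 transcription factors had a median log2 fold change of 0.32, and 5 had a fold above 0, but 0 passed even the unadjusted limma threshold. *Tcf21*, the most abundant, was the 1 factor with a lower mean in females, at 31.2 ± 4.66 and 25.9 ± 6.63 FPKM (SD, n = 5 each, limma adjusted p = 0.471). *Foxc2* had the lowest mean over all 10 libraries (3.11 FPKM), at 2.59 ± 0.715 and 3.63 ± 0.983 FPKM (SD, n = 5 each, limma adjusted p = 0.354). Among females *Lmx1b* was lower, with a mean of 3.50 FPKM.

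The 15 surface and secreted proteins had a median log2 fold change of 0.05. *Vegfa*, the growth factor that podocytes supply to the glomerular endothelium and that tubules also make, had the highest mean over all 10 libraries (68.8 FPKM), though not among males. It had 62.9 ± 4.85 FPKM in males and 74.7 ± 4.18 in females (SD, n = 5 each, limma adjusted p = 0.126, exact permutation p = 0.0159). *Pla2r1*, the phospholipase A2 receptor, was the lowest, with 0.367 ± 0.0415 and 0.213 ± 0.0866 FPKM from 11 to 47 reads in a library (SD, n = 5 each, exact permutation p = 0.00794, limma adjusted p = 0.283). *Enpep*, the aminopeptidase that cleaves angiotensin II and is also abundant in the proximal tubule, had 79.1 ± 4.51 FPKM in males and 58.4 ± 10.4 in females (SD, n = 5 each, exact permutation p = 0.00794, limma adjusted p = 0.0819). The call was made with quantile normalization (limma adjusted p = 0.0177) and with limma-voom on reads (adjusted p = 0.0457).

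The 7 tested genes of the glomerular basement membrane and its integrins had a median log2 fold change of -0.05. *Itgb1*, the integrin chain that anchors podocytes and most other cells, led with 132 ± 6.86 FPKM in males and 127 ± 9.72 in females (SD, n = 5 each, limma adjusted p = 0.809). *Lama5*, a laminin chain of the mature membrane, was the lowest with 13.0 ± 2.27 and 12.3 ± 1.59 FPKM (SD, n = 5 each, limma adjusted p = 0.861).

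Of the 6 markers that define podocytes none was at 0, and 4 of these (*Nphs1*, *Podxl*, *Synpo* and *Wt1*) are among the 8 genes. Males had a summed level of 136.9 to 189.9 FPKM and females one of 137.0 to 218.4 FPKM. Over the 10 libraries, with the sexes centred, the mean of the 8 genes rose and fell with the 8 glomerular endothelial markers (r = 0.93, rho = 0.92, and r = 0.81 without the 2 farthest libraries) and with the slit diaphragm partners (r = 0.94, rho = 0.88, and r = 0.84). For the 6 mesangial markers r was 0.81 and dropped to 0.48 without those libraries, and for the 6 proximal tubule markers it was -0.39 and -0.05. For the 3 parietal epithelial markers r was -0.22 with all libraries and -0.75 without those 2, and for the 3 thick ascending limb markers -0.38 and -0.36, so which list was the most negative depended on 2 libraries. Singly, the parietal markers were unlike each other over all libraries, at r = -0.45 for *Pax8*, 0.06 for *Pax2* and 0.07 for *Cldn1*. Whether their RNA came from parietal cells was not tested. The genes of the basement membrane and integrins followed less closely (r = 0.27). Taken singly over all 10 libraries, the endothelial markers ran from r = 0.45 for *Ehd3* to 0.86 for *Eng*. Whether their RNA came from glomerular or from other vessels was not tested.

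**Figure D5:**
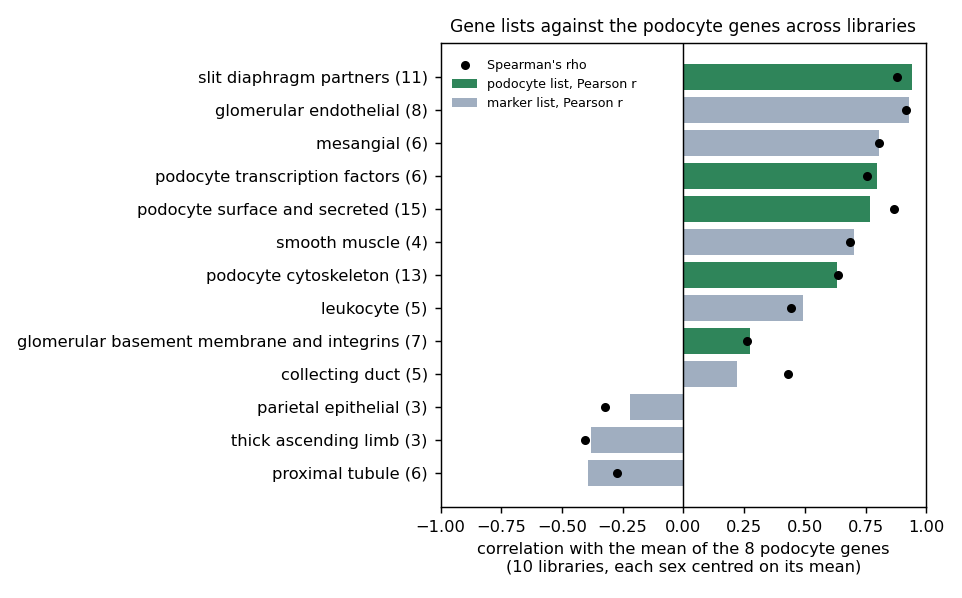
Correlation across 10 libraries, with each sex centred on its mean, between the mean of the 8 podocyte genes and the mean of each gene list (number of tested genes in brackets), as Pearson's r (bars) and Spearman's rho (points). The slit diaphragm partners (0.94) and the glomerular endothelial markers (0.93) are at the top and the proximal tubule markers (-0.39) at the bottom.

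Markers of other cell types were summed in each library. The 8 glomerular endothelial markers had sums from 180.7 to 230.7 FPKM over the males and from 169.6 to 278.0 over the females, with a median log2 fold change of 0.02 and 0 called. The 6 mesangial markers summed to 60.3 to 74.9 and 54.0 to 79.6 FPKM, with a median of -0.15 and 0 called. The 3 parietal epithelial markers summed to 50.8 to 72.8 and 58.8 to 90.4 FPKM, and limma called 1 of them higher in females, *Cldn1*, named after its values were seen, with 6.57 ± 1.14 and 13.5 ± 2.14 FPKM (SD, n = 5 each, limma adjusted p = 0.0025). The 6 proximal tubule markers summed to 1262 to 2491 and 1283 to 2602 FPKM, with 1 called higher (*Cubn*, limma adjusted p = 0.0467), and the 5 collecting duct markers to 189.2 to 269.4 and 242.4 to 339.8 FPKM, with 1 called higher (*Avpr2*, limma adjusted p = 0.0469). The 3 thick ascending limb, 5 leukocyte and 4 smooth muscle markers gave 0 calls, as did the 2 tested of the 3 distal convoluted tubule markers, where *Pvalb* was at 0 in every library. Sums for males and then females were 1002 to 1521 and 1059 to 1693 FPKM for the thick ascending limb, and 83.3 to 148.3 and 125.7 to 187.5 for the distal convoluted tubule. The females reached lower than any male for the leukocyte markers (47.1 to 74.9 and 21.3 to 71.5 FPKM) and the smooth muscle markers (125.3 to 167.3 and 52.9 to 210.7 FPKM), and the latter also exceeded every male in the highest female. Among the lists of other cell types with 2 or more tested markers, those with a median log2 fold change as far from 0 as the 0.29 of the 8 genes were the collecting duct (0.44, 5 of 5 folds above 0), the distal convoluted tubule (0.42, 2 of 2), the thick ascending limb (0.35, 3 of 3) and the leukocytes (-0.48, 0 of 5), while the parietal epithelium was at 0.21, the proximal tubule at 0.18 and smooth muscle at -0.17. The part of these cell types in the differences of *Plce1* and *Kirrel1* was not tested.

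By likeness to the mean of the 8 genes across the 10 libraries (Pearson r with sexes centred, over 13355 genes whose mean reached 1 FPKM), the 10 nearest genes were *Scnn1b* (r = 0.95), *Wisp1*, *Med15*, *Degs2*, *Hhip*, *Mmp19*, *LOC102554591*, *Nt5dc3*, *AABR07026969.1* and *Ptger4* (r = 0.92). None of the 10 was in the podocyte or marker lists, and none was called between the sexes by limma (adjusted p from 0.0891 to 0.878). Of the listed podocyte genes the nearest, picked out after their values were seen, were *Robo2* (r = 0.91, rank 17), *Sulf1* (r = 0.90, rank 21) and *Clic5* (r = 0.86, rank 55).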

How the data were processed

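The 10 libraries, 1 for each of 5 male and 5 female PCK rats, came from renal cortex and were grouped by the sex in the sample labels and numbered as there. The FPKM are as the authors deposited them, from HISAT2 2.0.5 on Ensembl Rnor_6.0, and the submitters' processing notes also name fastp, StringTie 1.3.3b and featureCounts 1.5.0-p3. The strand setting was not given in the sources used here. Dividing each FPKM by the worth of 1 read at the deposited gene length gave whole reads (within 0.01) for 100% of values, and the median-ratio factor was 1.01 in every library, so the values were already on that scale.

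Limma 3.58.1 (R 4.3.3, eBayes with trend) was run on log2(FPKM + 0.1) for the 17631 genes whose mean reached 0.1 FPKM, with Benjamini-Hochberg adjustment over all of them and a threshold of 0.05. A fold change on this scale is understated for low genes. Limma-voom on the recovered reads called 508 genes, against 424. Single values had exact two-sided permutation tests over the 252 splits (scipy 1.17.1). Replicates are separate rats. The scripts were tested on simulated data. The 8 genes and all lists were chosen with earlier results of these data known. The named genes are the 8, any called list gene, the highest and lowest of each list and the 10 most alike, and some genes that the rule names are not reported here. Genes named outside it were chosen after their values were seen: *Ddn*, *Enpep*, *Lmx1b*, *Robo2*, *Sulf1*, *Clic5*, *Ehd3*, *Eng*, *Pax2*, *Pax8* and the called markers. Promoter windows come from RefSeq (GRCr8). Other settings are listed in the closing section.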

Additional observations from a re-analysis of the deposited data

How the results depend on the processing

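Over the settings tried (pseudocount, filter, scaling, quantile normalization, limma-voom on reads, other variance fits, replicate block and leaving out each library), the folds of 7 of the 8 genes kept their direction, and *Cd2ap* did not. With 1 library left out, the log2 fold change of *Cd2ap* lay between -0.15 and 0.048 (above 0 without female 4 at 0.041, without female 5 at 0.048 and without male 4 at 0.033), and the mean difference between -4.01 and 2.35 FPKM (above 0 at 0.260 without male 3, 2.11 without male 4, 0.784 without female 3, 2.19 without female 4 and 2.35 without female 5). The limma count of 1 of 8 became 0 with scaling to total reads and lay between 0 and 1 with 1 library left out. The exact count of 2 of 8 lay between 1 and 4, with 4 without female 1. The limma count of 0 among the other podocyte and barrier genes became 1 with limma-voom and with quantile normalization (*Enpep* in both). Replicate numbers did not pair the rats: the deviations of same-numbered rats correlated at -0.10 to 0.07, and 1 of 5 males was closest to the female of its own number. With the number as a replicate block limma called 231 genes in place of 424 and 0 of the 8 genes (*Plce1* adjusted p = 0.129), and sign flips within pairs gave 0 of 8, as 5 pairs allow no exact p below 0.0625. The adjusted p of *Plce1* ranged from 0.00973 to 0.129 over the settings, and its log2 fold change from 0.43 to 0.64. Without female 2 the difference in means went from 2.43 to 1.55 FPKM for *Nphs1* and from 4.105 to 2.72 FPKM for *Ptpro*, and without female 1 the log2 fold change of *Wt1* was 0.50. The causes of these changes were not tested. With 5 rats a sex, differences of the size seen for *Nphs1* or *Synpo* lie within the spread between rats.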
